A study of Mus musculus with 11 samples.

Results

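Extracellular matrix and the surface proteins of cells are cut by zinc-dependent proteases of 3 related families, and transcripts of these families and of their inhibitors were measured in the mammary gland of mice with and without a Cre transgene that is active in adipocytes. Genes were taken by symbol, as any Mmp, Adam, Adamts or Adamtsl gene followed by a number and the inhibitors Timp1 to Timp4. Of the 22196 genes in the transcript tables, 84 had such a symbol. Of these, 41 had at least 10 estimated reads in at least 5 of the 11 libraries and were tested. They were 12 of 23 Mmp genes, 11 of 33 Adam genes, 11 of 19 Adamts genes, 3 of 5 Adamtsl genes and 4 of 4 Timp genes.

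All mice carried Tsc1 alleles flanked by loxP sites (Tsc1-fl/fl), and all samples bear the strain label Adipocyte Tsc1 Knockout. The 6 Knockout libraries came from mice that also carried Adipoq-Cre-Tg/+, in which the adiponectin promoter drives Cre in adipocytes, and the 5 Wild-Type libraries came from Adipoq-Cre-+/+ mice. Inguinal glands were taken 16 days after delivery from animals on normal chow, and the age label of all 11 samples is PND16.5, a postnatal day. The labels give no litter, batch or collection date and do not say outright that each library is a separate mouse, so p-values measure the spread between these samples. Libraries held between 25817975 and 37894237 estimated reads. Tsc1, read in whole tissue of which adipocytes are only some of the cells, averaged 10.1 ± 1.33 CPM over Knockout (SD, n = 6) against 10.7 ± 1.11 CPM over Wild-Type (SD, n = 5), with a log2 difference of -0.09 ± 0.11 (SE; edgeR adjusted p = 0.769). CPM gives a gene's count relative to the size of its library, here scaled with TMM factors, which correct for differences in library composition. The 6 genes that mark secretory luminal cells, among them the caseins, summed to 319500 to 559200 CPM, and the 8 adipocyte markers to 600.0 to 816 CPM, so that both cell types named or implied by the labels were read in all 11 libraries. Whether fewer cells of a type or less RNA per cell gives a lower value cannot be told apart in whole tissue.

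As background, MMPs are secreted or membrane-bound enzymes that cleave collagens, proteoglycans and other matrix proteins. ADAMs are membrane proteins best known for shedding growth factors, receptors and adhesion molecules from the cell surface. ADAMTS enzymes are secreted and process procollagens, cleave proteoglycans or act on microfibrils, while ADAMTS-like proteins have the accessory domains without the protease. TIMPs bind and block the active site of these enzymes. In the mammary gland the families are known for their part in duct branching and in the breakdown of basement membrane when lactation ends.

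Promoter sequences show how differently the start regions of these genes are built. The 4 printed here belong to members with the lowest p-values in the genotype comparison that the RefSeq promoter table (GRCm38.p6) covers; it covers 27 of the 41 members tested. Each is the 250 bases before the gene start given in that table, 5′ to 3′ on the gene's strand, which is the plus strand for all 4. That start can differ from the one in GENCODE, which is 70678997 for Adam10 and 50602084 for Adamts2. Capitals mark matches, on either strand, to 3 short motifs. The AP-1 motif is TGANTCA. The TATA box is TATAAA. The GC box is GGGCGG.
Mmp3, chr9:7445572-7445821: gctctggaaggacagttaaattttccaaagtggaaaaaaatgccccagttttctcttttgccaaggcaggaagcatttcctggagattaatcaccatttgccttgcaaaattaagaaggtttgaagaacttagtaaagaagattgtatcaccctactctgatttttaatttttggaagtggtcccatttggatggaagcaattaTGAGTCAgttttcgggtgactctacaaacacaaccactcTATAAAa
Timp1, chrX:20869916-20870165: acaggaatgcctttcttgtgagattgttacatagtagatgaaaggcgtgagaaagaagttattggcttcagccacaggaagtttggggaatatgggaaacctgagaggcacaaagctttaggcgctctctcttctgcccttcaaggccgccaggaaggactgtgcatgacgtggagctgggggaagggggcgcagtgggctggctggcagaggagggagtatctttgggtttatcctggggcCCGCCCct
Adam10, chr9:70678732-70678981: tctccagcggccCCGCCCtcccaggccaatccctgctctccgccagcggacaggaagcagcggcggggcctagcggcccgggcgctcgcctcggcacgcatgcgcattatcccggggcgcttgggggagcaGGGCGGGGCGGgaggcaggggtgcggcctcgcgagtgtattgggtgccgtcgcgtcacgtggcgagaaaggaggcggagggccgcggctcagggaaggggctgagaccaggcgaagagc
Adamts2, chr11:50601835-50602084: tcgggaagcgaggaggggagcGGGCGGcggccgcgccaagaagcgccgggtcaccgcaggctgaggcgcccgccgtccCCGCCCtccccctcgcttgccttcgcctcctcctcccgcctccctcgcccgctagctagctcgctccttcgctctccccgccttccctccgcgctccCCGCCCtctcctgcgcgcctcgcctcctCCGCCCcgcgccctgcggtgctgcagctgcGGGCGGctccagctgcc
The Mmp3 window held the AP-1 letters starting 46 bases and the TATA letters starting 7 bases before the gene start, and no GC box. The Timp1 window held 1 GC box, and the windows of Adam10 and Adamts2 held 3 and 5. G and C made up 37.6% of the Mmp3 window, 54.4% of that of Timp1, 74% of that of Adam10 and 78% of that of Adamts2. AP-1 letters stood in 4 of 31 windows of the members and in 6.73% of 32536 windows of all genes. TATA letters stood in 3 of 31 and in 12.3%, and GC boxes in 18 of 31 and in 33.0%. A match is a description of letters, and no binding was measured.

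Inhibitors and membrane sheddases held the highest levels. Levels were set side by side on the TPM scale, which divides by the length listed for each transcript. These lengths can fall short of the annotated transcripts. Timp2 lists 663 and 430 bases, whereas its annotated transcripts hold 3864 different words of 31 bases. On this scale Timp2 came first with a mean of 32.6 ± 4.31 TPM (SD, n = 11). Timp1 followed with 10.2 ± 3.49 TPM, Adam9 with 8.78 ± 1.93 TPM, Timp4 with 8.10 ± 1.22 TPM, Adam10 with 6.65 ± 1.62 TPM, Mmp2 with 5.75 ± 1.99 TPM and Timp3 with 5.65 ± 1.13 TPM. Timp2 stood apart, since its lowest library (27.1 TPM) lay above the highest library of any other member. The ranges from Timp1 down to Timp3 overlapped between neighbours. Mmp2's place in this order rests on its shorter transcript: Mmp2-203, of 381 bases against 1989 for Mmp2-201, held 64.7% to 79.0% of the gene's TPM in a library, and a short transcript turns few reads into a high TPM.

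Summed over families, the 4 TIMPs reached 48.9 to 67.2 TPM in a library, the ADAMs 18.1 to 33.8 TPM, the MMPs 9.68 to 26.4 TPM, the ADAMTS enzymes 3.19 to 6.63 TPM and the ADAMTS-like genes 0.463 to 3.33 TPM. Timp2 made up 57.7% of the TIMP sum and Adam9 37.5% of the ADAM sum. The lowest TIMP sum stood above the highest sum of any other family, while the ADAM and MMP ranges overlapped. These sums include members with too few reads to test. The highest ADAMTS-like sum was that of Knockout 4 alone, where the 3 tested ADAMTS-like genes Adamtsl4, Adamtsl1 and Adamtsl5 had 0.254, 0.0747 and 0.480 TPM, with the remainder in untested ones, and the next highest was 1.57 TPM in Knockout 2, below every ADAMTS sum.

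**Figure D1:**
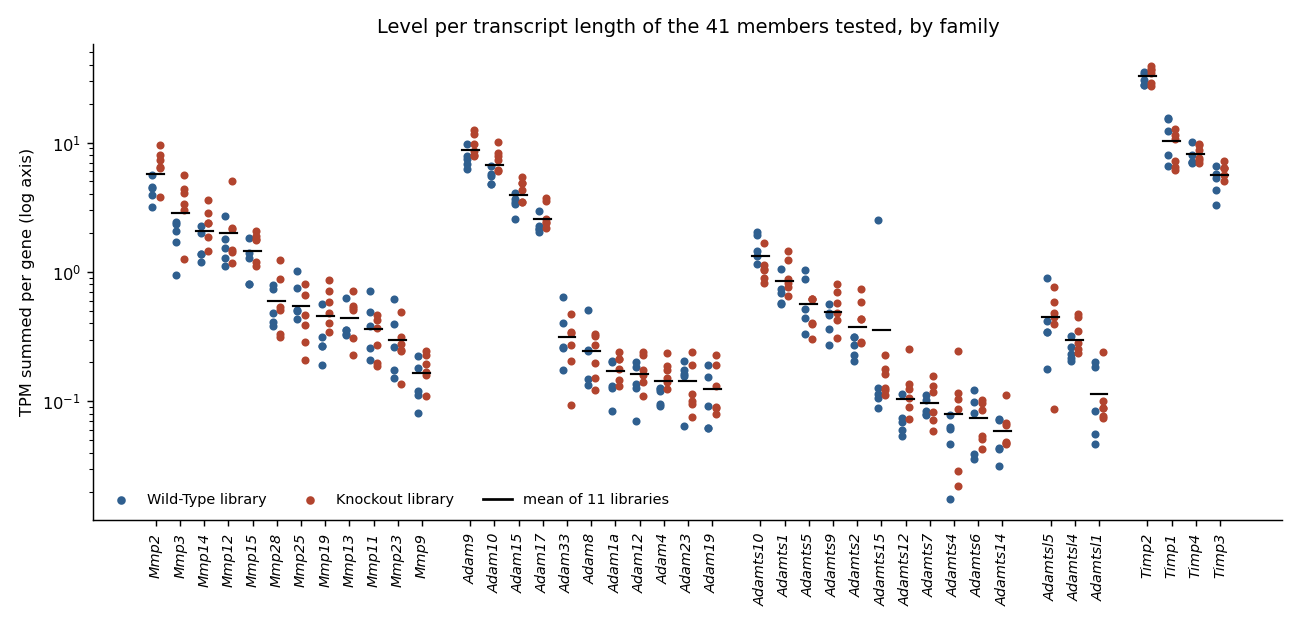
TPM per gene (log axis) of the 41 members tested, by family and ordered within it by mean; each point is a library, blue for Wild-Type and red for Knockout, and the bar is the mean of 11 libraries. Timp2 lies highest at a mean of 32.6 TPM, and the Adamts15 point at 2.52 TPM is Wild-Type 4, in which a listed transcript of 168 bases held up to 95.7% of the gene's TPM.

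Several enzymes known from other states of the gland were near or at 0. The 43 members that were not tested included 16 with no read in any library, and the one with the most reads, Mmp17, a membrane-type MMP, had 99 over all libraries, against 148 for Adamts4, the member tested with the fewest. Mmp7 (matrilysin) had 3 reads in total, all in Wild-Type 3, Mmp8 (neutrophil collagenase) had 3, and Mmp10 (stromelysin-2) had 0. Of the 41 members tested, 38 had at least 10 reads in all 11 libraries. None reached 10 reads in only 1 genotype.

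No member passed the genotype test at an adjusted p under 0.05 with edgeR's quasi-likelihood test, the count being 0 of 41 where 0.0546% of all 12813 genes tested passed (7 genes). Without adjustment, 6 of the 41 (14.6%) had p under 0.05, against 12.5% of all genes. Adamts10, Timp1, Adam10, Mmp2, Adamts2 and Mmp3 were these 6, of which Adamts10 and Timp1 were lower in Knockout and the other 4 higher. Over all genes, 6.31% had such a p with a higher and 6.15% with a lower value in Knockout. With edgeR, the share of the members is near the background. DESeq2 on the same counts called 1 of 41 members, Adamts10, where it called 1.16% of genes. It gave 9 of 41 members an unadjusted p under 0.05, a larger share than the 13.1% of genes that had one. Fitted values were above 0 for 25 of 41 members (61.0%), against 48.3% of all genes, and the median log2 difference was 0.09 over members and -0.01 over all genes. With total counts and no scaling factor, 32 of the 41 were above 0, as the median of all genes then moved up by 0.19.

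**Figure D2:**
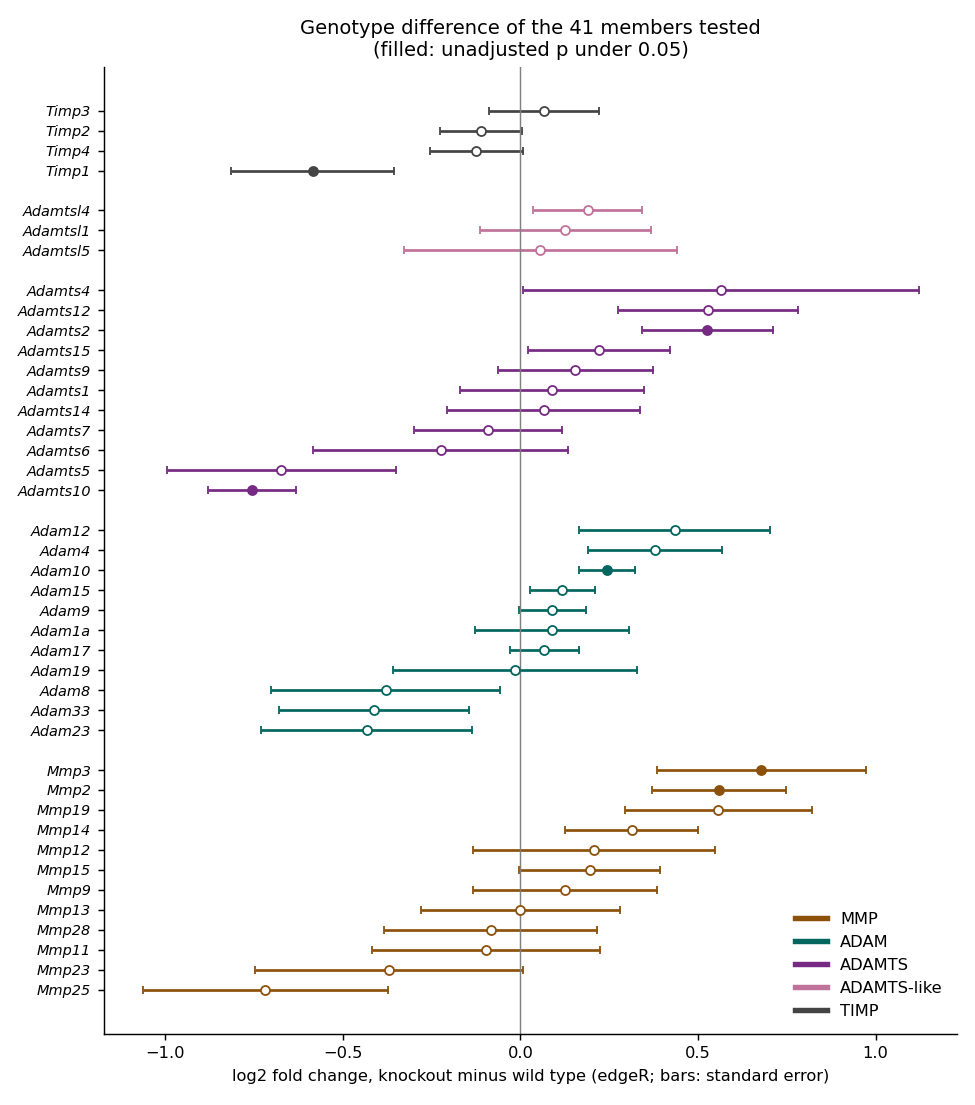
Log2 difference, Knockout minus Wild-Type, of the 41 members tested, with bars of 1 standard error from edgeR and colours for families; filled points have an unadjusted p under 0.05. Points range from -0.75 for Adamts10 to 0.68 for Mmp3, and no adjusted p is under 0.05.

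Adamts10, which encodes a secreted protein associated with fibrillin microfibrils, was the member with the smallest p-value. The gene (ENSMUSG00000024299) lies on chromosome 17 from 33524204 to 33553782 (GRCm38). Its level was 5.31, 6.34 and 6.72 CPM (lowest, median and highest) in the 6 Knockout libraries, and 8.16, 13.1, 10.3, 8.90 and 12 CPM in Wild-Type libraries 1 to 5. All 6 Knockout values were smaller than the lowest Wild-Type value. It was the single member whose groups did not overlap, among 1.33% of all genes that did not overlap and 0.546% with Knockout below. The log2 difference was -0.75 ± 0.12 (SE), or 40.7% fewer counts, with an edgeR adjusted p of 0.0600. The adjusted p was 5.06e-05 with DESeq2, and with edgeR it was 0.0350 without Wild-Type 1 and 0.0423 without Wild-Type 4; it was 0.139 with limma on the deposited normalized values and 0.167 with transcript length as an offset. The range over libraries left out in turn was 0.0350 to 0.175.

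B cell markers were set beside Adamts10 across the libraries. The B cell score differed by -2.68 between Knockout and Wild-Type (exact permutation p = 0.0541, adjusted 0.267 over 14 marker lists). The 4 B cell markers tested of 6 listed summed to 0.624 to 11.9 CPM over the Knockout and 1.72 to 65.7 CPM over the Wild-Type group, and the other 2 had too few reads to test. The B cell score, the mean log2 level of the markers around its mean over libraries, was above 0 in Knockout 1 and in Wild-Type 2, 4 and 5. Adamts10 was highest in Wild-Type 2 and Wild-Type 5, which had the highest scores. Across the 11 libraries the Pearson r was 0.79 (permutation p = 0.00506, adjusted 0.287 over 336 relations) and Spearman's rho 0.76 (permutation p = 0.00822, adjusted 0.550). Without Wild-Type 2 and Wild-Type 5, r was 0.44, and within the 6 Knockout libraries it was 0.22, so that the relation rests on those libraries. The same 4 libraries, Knockout 1 and Wild-Type 2, 4 and 5, had the highest T cell scores and the highest lymph node stroma scores, the latter resting on Ccl21a, 1 of 4 markers, with 2.66, 14.1, 4.77 and 22.5 CPM against at most 0.345 CPM in the other 7. Adamts10 had an r of 0.70 with the lymph node stroma score (permutation p = 0.0182, adjusted 0.368), which was 0.25 without Wild-Type 2 and Wild-Type 5, and of 0.53 with the T cell score (permutation p = 0.0963, adjusted 0.556). Among the 7 libraries with a B cell score below 0, 5 Knockout and 2 Wild-Type, the log2 difference of Adamts10 was -0.57 ± 0.14 (SE; edgeR adjusted p = 0.423). Adamts10 also had an r of 0.67 with the secretory luminal score (permutation p = 0.0284, adjusted 0.410), which was -0.51 within the 6 Knockout libraries. With the luminal score r was -0.61 (permutation p = 0.0486, adjusted 0.477) and 0.28 within the 6 Knockout libraries. The part of B cell, T cell, lymph node, secretory luminal or luminal content in the Adamts10 difference was not tested. Adam11, an ADAM without an active protease that was not tested for lack of reads, had 14 reads in Knockout 1 and 21, 11 and 28 in Wild-Type 2, 4 and 5, and 1 to 4 in each of the other 7 libraries.

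**Figure D3:**
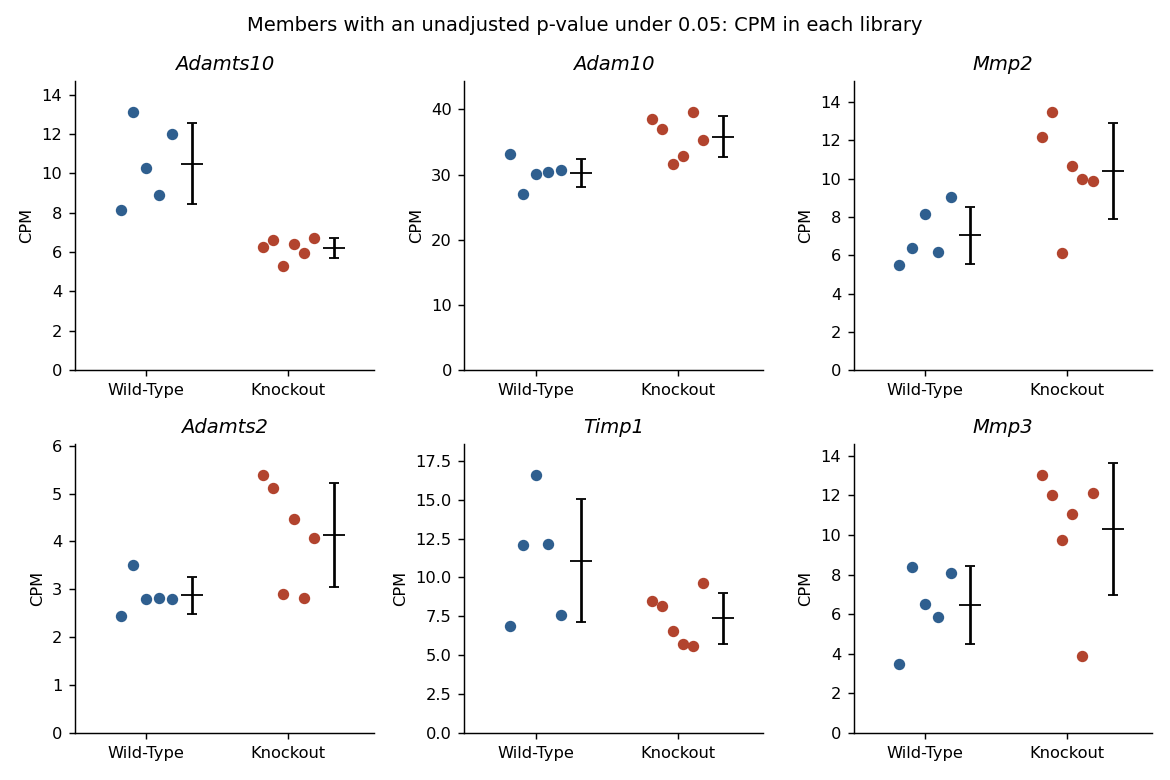
CPM in each library of the 6 members with an unadjusted p under 0.05, with the mean and SD of each group beside the points; axes start at 0. Adamts10 is the panel in which the groups do not overlap, and Mmp3 is the panel with Knockout 5 at 3.89 CPM below the other Knockout libraries.

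Among the MMPs, Mmp2 and Mmp3 had the lowest p-values, both higher in Knockout and neither past the adjusted threshold. Mmp2, gelatinase A, which degrades denatured and basement membrane collagen, was 6.14, 10.3 and 13.5 CPM (lowest, median and highest) in Knockout and 5.47, 6.39, 8.13, 6.17 and 9.06 CPM in Wild-Type libraries 1 to 5. Of the 6 Knockout libraries, 5 lay above every Wild-Type library and Knockout 3 lay below all of them but Wild-Type 1. The log2 difference was 0.56 ± 0.19 (SE; edgeR adjusted p = 0.305).

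Mmp3, stromelysin-1, which cleaves basement membrane proteins and activates other MMPs, was 3.89, 11.5 and 13.1 CPM in Knockout and 3.50, 8.40, 6.53, 5.86 and 8.07 CPM in Wild-Type libraries 1 to 5. Here too 5 of 6 Knockout libraries lay above all Wild-Type libraries, and the exception was Knockout 5. The log2 difference was 0.68 ± 0.29 (SE; edgeR adjusted p = 0.381). Of the 31-base words of annotated Mmp3 transcripts, 11.4% also occur in Mmp10, which had 0 reads. Annotated transcripts can be longer than the listed ones, so the share in the counted sequence may differ.

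The other MMPs, like Mmp2 and Mmp3, overlapped between genotypes. Mmp14, the membrane-type enzyme that activates proMMP2, was 6.21, 9.46 and 11.03 CPM in Knockout and 5.71, 9.07, 6.88, 5.10 and 9.69 CPM in Wild-Type libraries 1 to 5, a log2 difference of 0.31 ± 0.19 (SE; edgeR adjusted p = 0.513). Mmp12, the macrophage metalloelastase, reached 12.1 CPM in Knockout 2 and 2.95 to 5.80 CPM in the other Knockout libraries, beside 3.39 to 6.65 CPM in Wild-Type libraries. Its log2 difference was 0.21 ± 0.34 (SE; edgeR adjusted p = 0.837) with Knockout 2 and -0.16 without it. Mmp9, gelatinase B, averaged 0.973 ± 0.198 CPM over Knockout (SD, n = 6) against 0.897 ± 0.339 CPM over Wild-Type (SD, n = 5). Mmp13, the main rodent collagenase, was 1.31 ± 0.471 CPM and 1.31 ± 0.398 CPM in the same order. Mmp11, stromelysin-3, was 0.671 ± 0.205 CPM and 0.722 ± 0.322 CPM. Neither Mmp9, Mmp13 nor Mmp11 had a log2 difference larger than its standard error. Mmp25, a membrane-type enzyme of leukocytes, had the most negative log2 difference of the family, at -0.72 ± 0.35 (SE; edgeR adjusted p = 0.421).

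Mmp2 levels went with fibroblast markers across libraries. The fibroblast score used 8 of 8 markers, whose sum was 283 to 681 CPM over the Knockout and 214 to 476 CPM over the Wild-Type group. The score differed by 0.39 between genotypes (exact permutation p = 0.134, adjusted 0.313 over 14 marker lists), with the Knockout libraries higher on average. Across the 11 libraries, Mmp2 and the score had a Pearson r of 0.93 (permutation p = 0.00011, adjusted 0.0370) and a Spearman rho of 0.83 (permutation p = 0.00279, adjusted 0.469). Without Knockout 2 and Wild-Type 2, the libraries farthest from the median score, r was 0.92, and within the 6 Knockout libraries it was 0.91. Knockout 3, the Knockout library with the lowest Mmp2, had the lowest fibroblast score of its genotype. For Mmp14 the same r was 0.66 (permutation p = 0.0278, adjusted 0.410) and for Adamts2 0.68 (permutation p = 0.0217, adjusted 0.383). Mmp14 had an r of 0.83 with the neutrophil score, which rested on 2 of 6 markers (permutation p = 0.00159, adjusted 0.267), and of 0.71 with the macrophage score (permutation p = 0.0186, adjusted 0.368). Of 336 relations between 24 members and 14 marker lists, 1 passed with Pearson's r and 0 passed with both measures. The part of fibroblast content in the Mmp2 difference was not tested.

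**Figure D4:**
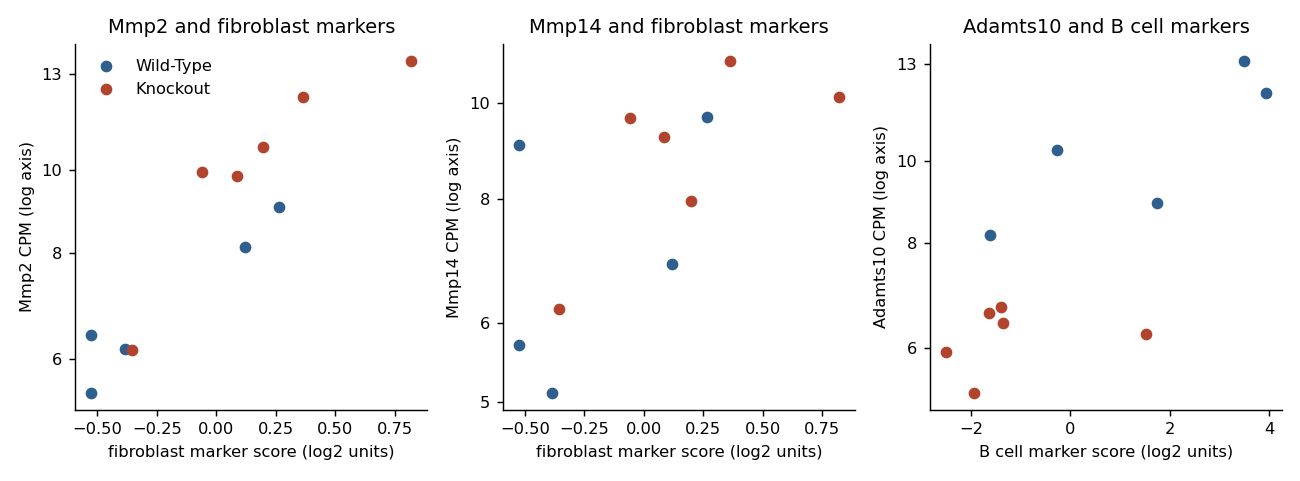
CPM of Mmp2 and Mmp14 (log axes) against the fibroblast marker score, and of Adamts10 against the B cell marker score, with a point for each of the 11 libraries. Mmp2 climbs with the score in both genotypes (r = 0.93), whereas the Adamts10 points of the Knockout libraries lie between 5.31 and 6.72 CPM over the whole range of their scores.

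Of the inhibitors, Timp1 was lower and Timp3 close to equal in Knockout libraries, while Timp2 and Timp4 were slightly lower with the TMM scaling and slightly higher (log2 0.08 and 0.05) with total counts. No inhibitor passed the adjusted threshold. Timp1, an inducible inhibitor of most MMPs, was 5.62, 7.38 and 9.65 CPM in Knockout and 6.87, 12.1, 16.6, 12.2 and 7.62 CPM in Wild-Type libraries 1 to 5. The groups overlapped, with Wild-Type 1 and Wild-Type 5 inside the Knockout range. The log2 difference was -0.59 ± 0.23 (SE; edgeR adjusted p = 0.347).

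Timp2, which also takes part in the activation of proMMP2 by MMP14, averaged 31.5 ± 5.29 CPM over Knockout (SD, n = 6) against 34.0 ± 4.01 CPM over Wild-Type (SD, n = 5), for a log2 difference of -0.11 ± 0.12 (SE; edgeR adjusted p = 0.730). Timp3, the inhibitor bound to matrix that also blocks ADAM17, was 5.30 ± 0.516 CPM and 5.06 ± 1.22 CPM, a log2 difference of 0.07 ± 0.15 (SE; edgeR adjusted p = 0.892). Timp4, known from adipose tissue and heart, was 8.03 ± 1.55 CPM and 8.73 ± 0.709 CPM, a log2 difference of -0.12 ± 0.13 (SE; edgeR adjusted p = 0.733). Timp1, Timp3 and Timp4 lie within the synapsin genes Syn1, Syn3 and Syn2 on the opposite strand; whether the counting used strand is not given in the sources used here.

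Among the sheddases, Adam10 was higher in Knockout libraries by a small margin that did not pass the adjusted threshold. Adam10, the enzyme that cuts Notch receptors and cadherins, was 31.6, 36.2 and 39.6 CPM in Knockout and 33.1, 27.0, 30.02, 30.4 and 30.6 CPM in Wild-Type libraries 1 to 5. Of the Knockout libraries, 4 of 6 lay above all Wild-Type libraries and the groups overlapped. The log2 difference was 0.24 ± 0.08 (SE; edgeR adjusted p = 0.280). Adam17, which releases TNF and EGF receptor ligands such as amphiregulin, averaged 14.6 ± 1.91 CPM over Knockout (SD, n = 6) against 13.9 ± 1.07 CPM over Wild-Type (SD, n = 5), for a log2 difference of 0.07 ± 0.10 (SE; edgeR adjusted p = 0.811). Adam9 averaged 59.2 ± 4.75 CPM and 55.6 ± 7.39 CPM, and Adam15 27.5 ± 2.54 CPM and 25.3 ± 2.90 CPM; edgeR adjusted p-values were 0.725 and 0.621. Adam12, also known as meltrin alpha, was 1.02 ± 0.262 CPM and 0.749 ± 0.278 CPM (edgeR adjusted p = 0.528).

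These 4 abundant ADAMs were the steadiest members. The SD of log2 CPM within genotypes was 0.118 for Adam10, 0.150 for Adam15, 0.155 for Adam17 and 0.156 for Adam9, against a median of 0.406 over the members and 0.235 over all genes. At the other end, it was 0.683 for Adamtsl5 and 0.899 for Adamts4, which had 3 to 38 reads in a library. Knockout 2 held the highest value of 10 members (24.4%) and the lowest of 0, and of all genes it held the highest value of 11.3% and the lowest of 10.6%.

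The ADAMTS enzymes went in different directions. Adamts2, the procollagen N-proteinase that trims fibrillar collagens, was 2.83, 4.28 and 5.40 CPM in Knockout and 2.45, 3.51, 2.80, 2.83 and 2.81 CPM in Wild-Type libraries 1 to 5. Of the 6 Knockout libraries, 4 lay above all Wild-Type libraries, and Knockout 3 and Knockout 5 lay among them. The log2 difference was 0.53 ± 0.18 (SE; edgeR adjusted p = 0.309). Adamts5, an aggrecanase that also cleaves versican, was 2.05, 3.16 and 4.69 CPM in Knockout and 3.82, 4.26, 9.20, 2.22 and 6.77 CPM in Wild-Type libraries 1 to 5, a log2 difference of -0.67 ± 0.32 (SE; edgeR adjusted p = 0.422) that was -0.37 without Wild-Type 3. Adamts1, another proteoglycan-cleaving enzyme, averaged 6.28 ± 2.11 CPM over Knockout (SD, n = 6) against 5.88 ± 2.19 CPM over Wild-Type (SD, n = 5), with a log2 difference of 0.09 ± 0.26. Adamts4, the other main aggrecanase, was 1.295 CPM in Knockout 2 and 0.147 to 0.561 CPM in the other Knockout libraries, beside 0.105 to 0.562 CPM in Wild-Type libraries. Of the 5 proteoglycan-cleaving members tested, 0 had an unadjusted p under 0.05 with edgeR, where 12.5% of all genes had one, and 1 had one with DESeq2, where 13.1% of all genes did.

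The ADAMTS-like genes were low and overlapped. Adamtsl4, which encodes a microfibril-associated protein, averaged 2.63 ± 0.493 CPM over Knockout (SD, n = 6) against 2.30 ± 0.320 CPM over Wild-Type (SD, n = 5) (edgeR adjusted p = 0.642). Adamtsl1 was 1.10 ± 0.234 CPM and 1.01 ± 0.302 CPM, and Adamtsl5 0.933 ± 0.457 CPM and 0.890 ± 0.414 CPM. The sign of these last log2 differences, 0.13 and 0.06, turned with transcript length as an offset, to -0.23 and -0.14.

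Genes that work with the members were read from 6 lists, and none of their genes passed the adjusted threshold with edgeR. In the list of other inhibitors and activators, 4 of 13 genes tested of 16 listed (30.8%) had an unadjusted p under 0.05, all higher in Knockout, where 12.5% of all genes had one and 6.31% were higher with one. They were Pcsk5, a proprotein convertase, with a log2 difference of 0.84 ± 0.19 (SE; edgeR adjusted p = 0.218), the Wnt antagonist Sfrp1 with 0.99 ± 0.35, Bmp1, the procollagen C-proteinase, with 0.28 ± 0.10, and the cathepsin inhibitor Cst3 with 0.40 ± 0.18. Pcsk5 had an adjusted p of 0.0193 with DESeq2. Furin, the convertase that activates MMP14 and many ADAMs, was 170.0 and 166.6 CPM on average in Knockout and Wild-Type libraries, with a log2 difference of 0.03 ± 0.13.

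Matrix substrates had positive log2 differences in 21 of 25 genes tested of 28 listed, where 48.3% of all genes had one, and 3 of the 25 had an unadjusted p under 0.05, close to the 12.5% of all genes. Thbs2, thrombospondin-2, a matricellular protein that binds MMP2 and aids its uptake, was 4.19, 5.57 and 8.74 CPM (lowest, median and highest) in Knockout libraries, and the Wild-Type values ran from 1.70 to 3.51 CPM. Its groups did not overlap, and the log2 difference was 1.19 ± 0.22 (SE; edgeR adjusted p = 0.112; DESeq2 adjusted p = 0.000265). The small proteoglycans lumican (Lum) and decorin (Dcn) followed with 0.61 ± 0.20 and 0.37 ± 0.16, and both are also fibroblast markers in the score above, as are Col1a1, Col1a2, Col3a1 and Fbn1 of the same list. All 8 markers of that score had positive log2 differences, and their part in the count for the list was not tested.

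Among substrates shed by ADAMs, 4 of 20 genes tested of 27 listed had an unadjusted p under 0.05, all higher in Knockout, beside 12.5% of all genes in either direction and 6.31% higher. App, the amyloid precursor protein, had a log2 difference of 0.30 ± 0.09 (SE; edgeR adjusted p = 0.267), and Cx3cl1, Cdh1 and Kitl had 0.53, 0.41 and 0.49. With transcript length as an offset, Cx3cl1 had 1.01. Cdh1 is also a marker in the luminal score, which differed by 0.60 between genotypes (exact permutation p = 0.0952); its part in the Cdh1 value was not tested. Partners of ADAM17 and ADAM10 gave 1 of 10, the tetraspanin Tspan33 at 0.48 ± 0.22. The plasminogen system gave 1 of 9 tested of 12 listed, the plasmin inhibitor Serpinf2 at -0.89 ± 0.30 (-2.65 with transcript length as an offset), and its activator Plau had 0.32 ± 0.17. Transcription factors of metalloproteinase genes gave 1 of 11 tested of 14 listed, Ets1 at -0.93 ± 0.33, with 1.51 to 7.30 CPM in Wild-Type and 1.95 to 3.02 CPM in Knockout libraries. Among the 7 libraries with a B cell score below 0, 5 Knockout and 2 Wild-Type, chosen after seeing the data, the Ets1 log2 fold change was -0.02. The part of B cell content in the Ets1 difference was not tested.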

How the data were processed

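Total RNA of 11 libraries was sequenced. The authors deposited, per the file headers, a transcript table for each library with estimated counts, TPM and, in bases, other values (length and effective length). A series table holds, as deposited by the authors, gene values on a normalized signal scale, which its name credits to DESeq2. The submitters' processing notes name Salmon 1.3.0, DESeq2 1.28.1 and GRCm38.p6; index and options are not given in the sources used here. Estimated counts were summed to 22196 genes with GENCODE M21 (58204 transcripts listed, 752 unmatched, at most 0.265% of reads) and rounded. TPM was summed per gene for levels only.

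Genes with at least 10 reads in 5 libraries were tested (12813) with edgeR 4.0.16: TMM factors, robust quasi-likelihood F test, no covariates, Benjamini-Hochberg adjustment at 0.05 over all genes, all 11 libraries (R 4.3.3, prior count 2 for log values). The test was tested on simulated data. Alternatives were DESeq2 1.42.0, limma 3.58.1 on log2 of the deposited values plus 1, other scalings and filters, transcript length offsets, the replicate block and each library left out. Marker scores were compared with exact two-sided permutation tests over 462 splits (smallest p 0.00217), and relations with 100000 resamples, two-sided. Depth of 25817975 to 37894237 reads and a common biological coefficient of variation of 24.2% set the precision; no pair of libraries of a genotype looked duplicated.

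Members are named if they are inhibitors, had an unadjusted p under 0.05 or groups that did not overlap, were among the 3 highest by TPM in a family, or stood on a list of well-known enzymes; other members named are extremes chosen after their values were seen. Members and lists were chosen with earlier results of these data known. The level of 1 of the listed marker genes is not reported here.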

Additional observations from a re-analysis of the deposited data

Results flagged for a closer look

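Within a genotype, 7 of 86 sets of values tested had a library far from the others by Dixon's criterion, where chance gives about 1 in 20 sets, or 4.3. Mmp12 was 12.1 CPM in Knockout 2, against 2.95 to 5.80 CPM in the other Knockout libraries. Adamts4 was 1.295 CPM in the same library, against 0.147 to 0.561 CPM, and the pericyte marker score there was 0.44, against -0.20 to -0.08. Mmp3 was 3.89 CPM in Knockout 5, against 9.77 to 13.1 CPM, and Adamtsl1 was 0.660 CPM in Knockout 3, against 1.08 to 1.32 CPM. The B cell marker score was 1.52 in Knockout 1, against -2.50 to -1.36 in the other Knockout libraries. The secretory luminal score was -0.092 in Wild-Type 4, against 0.16 to 0.23 in the other Wild-Type libraries.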

How the results depend on the processing

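With TMM and edgeR, 7 of all genes passed; the count was 148 with DESeq2, 2 without the 4 libraries with a B cell score above 0 (chosen after seeing the data) and 2 to 23 with a library left out. Members passing were 0, then 1 with DESeq2 and 0 to 1 with a library left out (Adamts10 without Wild-Type 1 or Wild-Type 4). Members with an unadjusted p under 0.05 were 6, then 12 with total counts, 3 without the B cell libraries and 4 to 11 with a library left out, the 11 without Wild-Type 5. Pathway genes passing were 0, then 2 with DESeq2 and 1 with total counts; with an unadjusted p under 0.05 they were 14, then 23 with total counts. Members whose groups did not overlap were 1, then 0 with total counts and 1 to 2 with a library left out (2 without Knockout 3, Knockout 5, Wild-Type 1 or Wild-Type 2). Shares over all genes with an unadjusted p under 0.05, or without overlap, are not given for total counts or for libraries left out. The member and pathway counts there therefore cannot be set against a background. With total counts the median log2 difference of all genes also moved up by 0.19. Libraries with the same replicate number showed no clear likeness. Correlations of same-numbered deviations were -0.22 to 0.18 over 5 pairs, 1 above 0.1. Of 5 Wild-Type libraries, 0 were closest to their own number. The labels give no litter or batch, so weak correlations cannot exclude a pairing. With the replicate block, 0 genes passed and pathway genes with an unadjusted p under 0.05 were 7.

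Of 552 values of the 24 named members, 522 kept their direction and 13 members never turned. With total counts Mmp11 was 0.10, Mmp13 0.20, Timp2 0.076, Timp4 0.054 and Tsc1 0.10. Without the B cell libraries Adam9 was -0.059, Adamts1 -0.23, Timp3 -0.18 and Mmp13 0.094. Adamtsl1 was -0.15 and Adamtsl5 -0.18 with limma, and -0.23 and -0.14 with the length offset. Mmp13 was 0.0057 with DESeq2, 0.0048 with its size factors, 0.0012 with upper-quartile scaling and 0.0082 without milk genes. With a library left out, Adamts1 ranged from -0.090 to 0.34, Adamtsl1 from -0.017 to 0.25, Adamtsl5 from -0.19 to 0.38, Mmp11 from -0.25 to 0.16, Mmp12 from -0.16 to 0.35 (lowest without Knockout 2), Mmp13 from -0.16 to 0.19, Mmp9 from -0.0024 to 0.31 and Timp3 from -0.059 to 0.15. The macrophage score ranged from -0.070 to 0.052, the skeletal muscle score from -0.65 to 1.10 and the red cell score from -0.24 to 0.041. Without a change of sign, the T cell score ranged from -1.30 to -0.39 and the adipocyte score from 0.020 to 0.12. The cause was not tested. Counts of 3 to 52 reads in a library limit Adamts4, Mmp11, Adamtsl1 and Adamtsl5.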

Other observations

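Of 14 marker lists, 0 differed between genotypes at an adjusted p under 0.05 by the exact permutation test. The secretory luminal score was lower by 0.27 in Knockout libraries (difference -0.27, exact p = 0.0152, adjusted 0.212). The B cell score differed by -2.68 (exact p = 0.0541), the lymph node stroma score, which rested on 1 of 4 markers, by -2.93 (exact p = 0.0844), the T cell score by -0.85 (exact p = 0.264), the luminal score by 0.60 (exact p = 0.0952) and the myoepithelial and smooth muscle score by 0.30 (exact p = 0.0736). The adipocyte score differed by 0.07 and the macrophage score by -0.02 (exact p = 0.517 and 0.890). Of 8 adipocyte markers, 6 were higher in Knockout libraries, where 48.3% of all genes were. Of these, 3 had an unadjusted p under 0.05, where 6.31% of all genes were higher with one. The 3 had log2 differences of 0.40 ± 0.11 for Adipoq, 0.35 ± 0.10 for Fabp4 and 0.45 ± 0.14 for Cidec (SE; edgeR adjusted p = 0.259, 0.252 and 0.273), while Lep had -0.82 and Pnpla2 -0.25. The neutrophil list rested on 2 of 6 markers, S100a8 and Csf3r, since S100a9, Ly6g, Cxcr2 and Retnlg had too few reads. Lao1, a milk oxidase, had the lowest p of the 15 milk protein genes, with a log2 difference of -0.55 ± 0.15 (SE; edgeR adjusted p = 0.259). Spp1, which encodes osteopontin, was the other gene of that list with an unadjusted p under 0.05 and lay in the opposite direction, with Knockout libraries spanning 1.93 to 78.5 CPM, Wild-Type libraries 0.752 to 2.39 CPM, and 4 of 6 Knockout libraries above all Wild-Type libraries (log2 difference 3.91 ± 1.16; edgeR adjusted p = 0.277). DESeq2 called 2 of the 15, where it called 1.16% of all genes. It gave 7 of the 15 an unadjusted p under 0.05, where 13.1% of all genes had one. The 2 genes with an unadjusted edgeR p under 0.05 stand beside 12.5% of all genes. Of the 15, 12 were lower and 3 higher in Knockout libraries, where 48.3% of all genes were higher.

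Adamts2 and the secretory luminal score had opposite courses across the 11 libraries, with a Pearson r of -0.80 (permutation p = 0.00513, adjusted 0.287), a Spearman rho of -0.87 (permutation p = 0.0009, adjusted 0.302), an r of -0.78 without Wild-Type 3 and Wild-Type 5, and an r of -0.89 within the 6 Knockout libraries. It did not pass the adjustment over 336 relations.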
